A study of Mus musculus with 4 samples.

Results

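The genes described here are 38 antiviral effectors that interferon switches on, listed by symbol: sensors of viral RNA and DNA, the IFIT family, the ISG15 system, enzymes that act on nucleotides and RNA, TRIM and PARP proteins, and other genes of the response. A gene was taken up where the accession of a probe belonged to its symbol, and 35 of the 38 genes were found in this way, through 49 probes. All 35 passed the filter on dim probes and were tested, out of 23570 genes and accessions tested in all. Mx1, Mx2 and Ddx60 matched no probe and are not analysed here. The 35 genes were well above background in all 8 channels of the 4 arrays, so none of them was kept only through a group in which it was high.

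Lipopolysaccharide (LPS), a component of the outer membrane of Gram-negative bacteria, is sensed by TLR4 on macrophages, which then make interferon beta. Interferon beta acts back on the cells through its receptor and the kinases bound to it, and the signal reaches the interferon-stimulated response element in the promoters of effector genes. Macrophages also keep these genes at a low tonic level without any stimulus. The effectors then block single steps of viral growth: IFIT proteins bind foreign RNA ends, viperin (Rsad2) makes a nucleotide that stops viral RNA synthesis, and ISG15 is a small protein that is attached to other proteins.

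The study compared macrophages of Cdk5r1 knockout mice with those of wildtype mice, with and without LPS. The product of Cdk5r1 is p35, a protein that switches on the kinase CDK5. Bone marrow cells were cultured with GM-CSF at 25 ng/ml for 7 days, and this growth factor was given to every group. The 4 groups were knockout cells with LPS, wildtype cells with LPS, knockout cells without LPS and wildtype cells without LPS. LPS came from E. coli and was given at 100 ng/ml for 6 h. All mice were 6 weeks old and male, and the labels give the strain B6.129S4-Cdk5r1tm1Lht/J for both genotypes, so the allele stands in the strain name of the wildtype mice too. Each of the 4 arrays held knockout RNA in the Cy5 channel and wildtype RNA in the Cy3 channel, with 2 arrays for LPS and 2 for the basal state. The dyes were never swapped, so within an array the effect of the dye on a probe and the effect of genotype cannot be told apart. Replicates are called biological in the labels, but no animals are named, so the p-values measure the spread between these samples.

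The knockout channels held less Cdk5r1 signal than the wildtype channels on every array. The log2 ratio of knockout over wildtype was -2.55 and -2.29 on the LPS arrays, and -0.37 and -0.59 on the basal arrays. The basal fit was -0.50 to -0.33 with processed signals, the authors' deposited table, an offset of 20, median centring or a replicate block. Its limma adjusted p was 0.0533 to 0.15 under these settings, above the threshold used here. The Cdk5r1 probe stayed well above background in knockout cells, and whether it lies in the deleted stretch was not tested. The 7 macrophage markers with a probe (Adgre1, Csf1r, Itgam, Mertk, Fcgr1, Mrc1 and Lyz2) were well above background in all 8 channels. Between 62.1% and 65.0% of the probe spots of an array were well above background in Cy5, and 68.3% to 71.0% in Cy3. All levels below are log2 intensities after background correction, loess and quantile scaling, each differing by 1 for a change of 2-fold. All ratios are log2 of knockout over wildtype from the same array, and a level of one gene cannot be set against that of another. A gene counts as changed at an adjusted p under 0.05 in limma, with Benjamini-Hochberg adjustment over all 23570 genes.

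Promoters were read for matches to the response element named above. RefSeq promoter sequences of the build GRCm38.p6, from 250 bases before to 50 bases after the start of transcription, were at hand for 27 of the 38 genes. The core of the interferon-stimulated response element was searched on both strands as GAAA followed, after any 2 bases, by a further GAAA. It stood in 12 of the 27 genes (44.4%), against 3.99% of all 27025 genes with such a promoter sequence. Among the genes that were lower in basal knockout cells, described further on, 5 of 9 with a promoter sequence held it (55.6%), and among those not called 6 of 17 did (35.3%). The core of the gamma-activated sequence, searched as TTCNNNGAA, stood in 6 of the 27 genes (22.2%), against 9.55% of all genes, and in 1 promoter, that of Bst2, the matches of both motifs overlapped. These are matches of letters in a window of 300 bases and not measured binding.

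The 5 promoters that hold the response element core and belong to genes lower in basal knockout cells are shown, 5′ to 3′ on the strand of the gene, with the matches to that core, or to its reverse complement, in capitals. They are Isg15 (chr4:156200769-156201068, minus strand), Ifit3 (chr19:34583279-34583578, plus strand), Ifit1 (chr19:34640639-34640938, plus strand), Rsad2 (chr12:26456403-26456702, minus strand) and Ddx58 (chr4:40239776-40240075, minus strand).
Isg15: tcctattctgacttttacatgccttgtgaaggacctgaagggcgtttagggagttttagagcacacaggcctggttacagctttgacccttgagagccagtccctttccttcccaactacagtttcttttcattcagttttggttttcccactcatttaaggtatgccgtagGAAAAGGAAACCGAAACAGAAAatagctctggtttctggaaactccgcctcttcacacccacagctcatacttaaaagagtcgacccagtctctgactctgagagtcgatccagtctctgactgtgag
Ifit3: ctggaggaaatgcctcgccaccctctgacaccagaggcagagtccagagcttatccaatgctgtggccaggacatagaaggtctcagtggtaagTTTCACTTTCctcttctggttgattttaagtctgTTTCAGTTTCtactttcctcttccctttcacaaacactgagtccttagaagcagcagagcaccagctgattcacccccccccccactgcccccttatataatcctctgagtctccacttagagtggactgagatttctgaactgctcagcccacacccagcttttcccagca
Ifit1: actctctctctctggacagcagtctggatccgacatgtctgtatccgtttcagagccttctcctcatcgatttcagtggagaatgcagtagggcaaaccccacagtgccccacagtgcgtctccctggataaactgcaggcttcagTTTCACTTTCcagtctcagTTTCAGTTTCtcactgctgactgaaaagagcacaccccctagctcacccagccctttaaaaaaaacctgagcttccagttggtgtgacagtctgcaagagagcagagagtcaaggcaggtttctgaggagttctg
Rsad2: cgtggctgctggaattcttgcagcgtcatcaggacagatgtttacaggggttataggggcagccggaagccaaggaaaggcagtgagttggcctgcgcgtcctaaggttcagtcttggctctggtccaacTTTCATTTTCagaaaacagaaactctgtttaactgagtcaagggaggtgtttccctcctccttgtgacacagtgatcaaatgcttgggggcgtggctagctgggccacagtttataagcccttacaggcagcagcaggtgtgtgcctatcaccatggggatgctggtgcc
Ddx58: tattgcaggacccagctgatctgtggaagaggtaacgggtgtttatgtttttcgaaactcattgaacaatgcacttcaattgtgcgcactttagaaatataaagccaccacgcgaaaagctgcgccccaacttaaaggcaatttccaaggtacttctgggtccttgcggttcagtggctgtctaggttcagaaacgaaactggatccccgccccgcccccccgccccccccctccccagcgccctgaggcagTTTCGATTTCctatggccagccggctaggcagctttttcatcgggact
Isg15 carried 3 overlapping matches in 1 unbroken stretch, of which the first began at base -78 from the start of transcription and the last at -66. Ifit1 had matches at -104 and -85, and Ifit3 at -156 and -122. Rsad2 had 1 match at -120. Ddx58 differed in that its match lay behind the start, at base 3.

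LPS raised the antiviral effectors in both genotypes. In knockout cells 35 of 35 genes rose, where 19.0% of all genes did, and in wildtype cells 34 of 35 rose, where 18.3% of all genes did. None of the 35 fell in either genotype, also not at an unadjusted p under 0.05 in limma, while 22.8% of all genes fell in knockout cells and 23.5% in wildtype cells. Counting both directions, 41.8% of all genes changed in each genotype. The median change over the 35 genes was 3.81 in knockout cells and 3.35 in wildtype cells on the log2 scale, against -0.01 for all genes in both. Scaling each channel to its 75th percentile moved the median of all genes to 0.35 in knockout cells and 0.37 in wildtype cells, and the smallest changes below are read with that shift in mind.

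The most strongly induced gene was Rsad2, which encodes viperin. Its level was 17.41 and 17.20 in knockout cells with LPS, against 8.49 and 7.42 in knockout cells without it. In wildtype cells it was 17.63 and 17.80 with LPS, against 9.16 and 8.38 without. All LPS levels lay far above all basal levels, and the change was 9.35 ± 0.38 (SE, n = 2 arrays per condition; limma adjusted p = 0.000613) in knockout cells and 8.94 ± 0.28 (limma adjusted p = 0.000315) in wildtype cells, or 652-fold and 493-fold.

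The 3 IFIT genes and Cmpk2, a mitochondrial nucleotide kinase that is the genomic neighbour of Rsad2, followed. Ifit1 measured 15.64 and 15.34 in LPS knockout cells, against 7.27 and 6.86 in basal knockout cells, and 15.90 and 15.52 in LPS wildtype cells, against 7.83 and 7.42 in basal wildtype cells. Its change was 8.43 ± 0.19 in knockout cells and 8.09 ± 0.20 in wildtype cells. Cmpk2 measured 15.39 and 14.94 in LPS knockout cells, against 7.27 and 6.58 in basal knockout cells, and 15.60 and 15.20 in LPS wildtype cells, against 7.66 and 7.05 in basal wildtype cells. All LPS levels of both genes lay above all of their basal levels. Ifit2 changed by 7.90 ± 0.20 in knockout cells and 7.51 ± 0.25 in wildtype cells, and Ifit3 by 7.74 ± 0.42 and, in wildtype cells, 7.20 ± 0.41. The 4 genes rose in both genotypes, with the highest limma adjusted p, that of Ifit3 in knockout cells, at 0.00101.

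The sensors of viral nucleic acid rose by 3.15 to 5.42 in knockout cells and by 3.11 to 5.05 in wildtype cells. Ifih1 (MDA5), Dhx58 (LGP2) and Ddx58 (RIG-I) are RNA helicases of the cytosol, Zbp1 binds Z-form nucleic acid, and Ifi204 is a mouse protein of the DNA-sensing family. The ISG15 system rose by 4.57 to 6.96 in knockout cells and by 4.32 to 5.70 in wildtype cells: Isg15, the modifier itself, Usp18, the protease that removes it and also damps the interferon receptor, and Herc6, a ligase that attaches it in mice. PARP and DTX3L genes rose by 3.02 to 3.96 in knockout cells and by 2.85 to 3.56 in wildtype cells. The nuclear body genes Pml, Sp100 and Daxx rose by 2.38 to 3.46 in knockout cells and by 2.20 to 3.30 in wildtype cells. Bst2 (tetherin), which holds budding virus at the cell surface, rose by 2.37 ± 0.35 in knockout cells and 2.42 ± 0.56 in wildtype cells.

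The smallest changes were those of Ifi27l2a, Lgals3bp and Adar. Ifi27l2a encodes a small membrane protein of the interferon response. Ifi27l2a measured 16.97 and 17.17 in LPS knockout cells, against 16.00 and 15.92 in basal knockout cells. In wildtype cells it measured 16.60 and 17.08 with LPS, against 16.58 and 16.22 without. The knockout difference was 1.11 ± 0.12 (limma adjusted p = 0.00383), and the wildtype difference of 0.44 ± 0.22 did not pass (limma adjusted p = 0.169), so that Ifi27l2a is the 1 gene of the 35 not called there. Lgals3bp, a secreted galectin-binding glycoprotein, measured 15.73 and 16.15 in LPS knockout cells, against 15.10 and 14.74 in basal knockout cells, and 15.67 and 16.14 in LPS wildtype cells, against 15.29 and 15.14 in basal wildtype cells. Adar, which edits adenosine in double-stranded RNA, measured 14.28 on both arrays of LPS knockout cells, against 13.44 and 13.14 in basal knockout cells, and 14.29 and 14.23 in LPS wildtype cells, against 13.32 and 13.20 in basal wildtype cells. Its change came to 1.00 in both genotypes, with SE 0.137 in knockout cells and 0.0997 in wildtype cells. The other Adar probe rose by 2.21 ± 0.13 in knockout cells and 1.98 ± 0.11 in wildtype cells, so Adar is among the smallest changes by its brighter probe only.

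**Figure D1:**
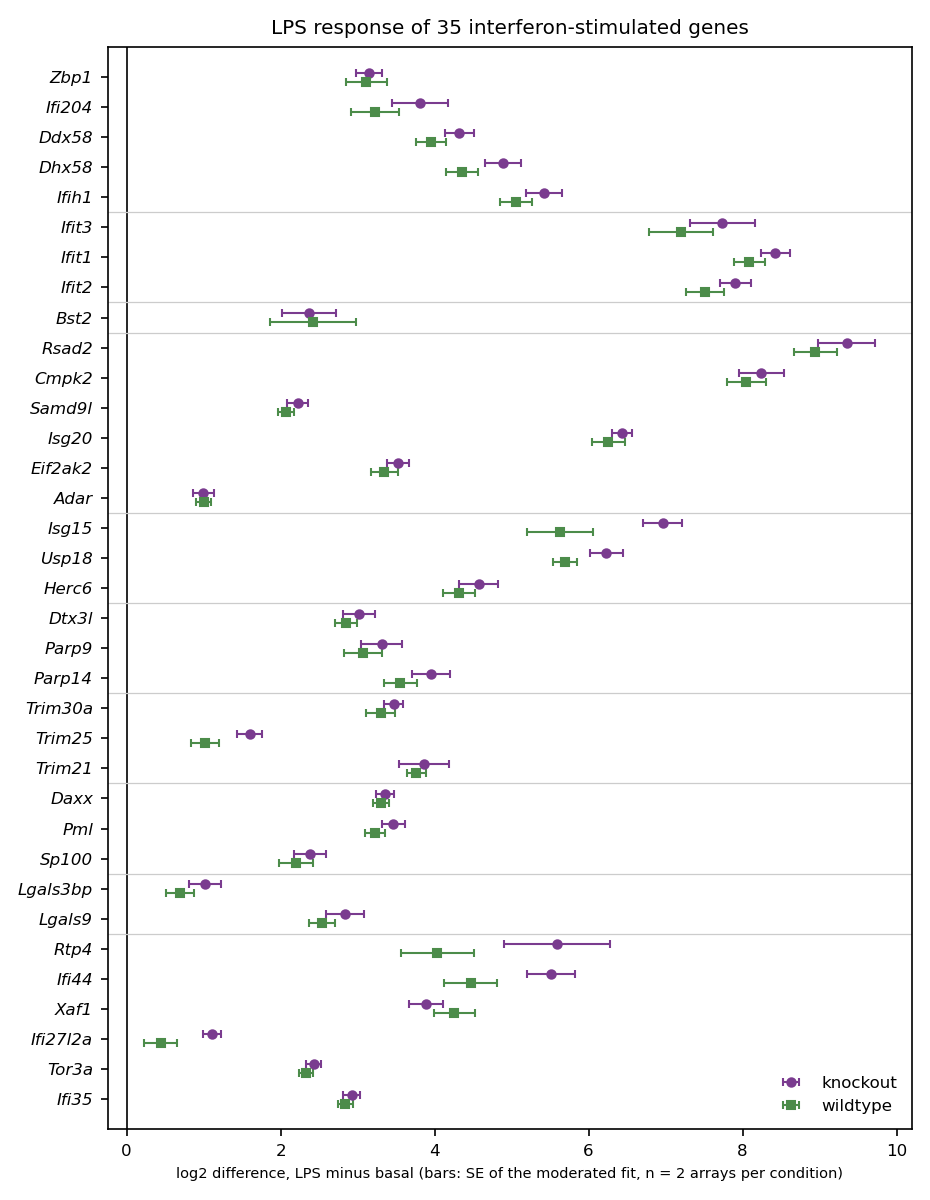
LPS response of the 35 antiviral effectors in knockout and wildtype macrophages, as the log2 difference of LPS minus basal cells with its standard error (n = 2 arrays per condition). Genes are grouped by role; Rsad2 lies furthest right with 9.35 in knockout and 8.94 in wildtype cells, and Ifi27l2a in wildtype cells furthest left at 0.44.

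Without LPS, a set of the effectors was lower in knockout cells. Of the 35 genes 14 were lower and 0 were higher, where 1.49% of all genes were lower and 3.37% higher (4.87% in either direction). At an unadjusted p under 0.05 in limma, 24 were lower and 0 higher. The share of all genes at this looser threshold was not counted, so the shares above are no reference for it. The median ratio over the 35 genes was -0.30, against 0.00 for all genes, and with median centring in place of loess it was -0.12, with 0.09 for all genes. The ratio was below 0 on both basal arrays for 28 of the 35 genes, as it was for 32.0% of all genes. In bulk RNA, fewer cells that express a gene and less RNA of it per cell cannot be told apart. With the scanner's processed signals 6 of the 14 stayed lower, as with the log2 ratios of the authors' deposited table, and leaving out 1 basal array gave 9 to 11 lower genes. Ifi44, Rtp4, Usp18 and Ifit1 were the 4 genes called under every alternative.

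The calls were uneven over the roles. The 3 IFIT genes were all lower, and so were 4 of 5 sensors (Zbp1, Ifi204, Ddx58 and Dhx58, with Ifih1 not called at -0.32 ± 0.085, limma adjusted p = 0.103), 2 of 3 genes of the ISG15 system (Isg15 and Usp18), 2 of 6 enzymes of nucleotides and RNA (Rsad2 and Cmpk2), and 3 of the 6 other induced genes (Rtp4, Ifi44 and, by its brighter probe, Xaf1). No gene was called among the 3 PARP and DTX3L genes, whose ratios were -0.26 to -0.20, the 3 TRIM genes at -0.29 to 0.10, the 3 nuclear body genes at -0.24 to -0.01, and the galectin pair at -0.30 and -0.26. Bst2 had a ratio of 0.07 ± 0.15 and was not called. Whether the roles differ from each other was not tested.

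Rtp4 and Ifi44 stood furthest from 0. Rtp4 encodes a chaperone of receptors that also binds viral RNA, and Ifi44 encodes a cytosolic protein of the interferon response whose action is less well known. Rtp4 had a level of 10.58 and 8.52 in basal knockout cells, against 12.16 and 10.74 in basal wildtype cells, and ratios of -1.58 and -2.23. Ifi44 had a level of 8.75 and 8.16 in basal knockout cells, against 10.77 and 9.94 in basal wildtype cells, and ratios of -2.02 and -1.78. For both genes, the 2 knockout levels lay below the 2 wildtype levels. The fitted ratio was -1.90 ± 0.15 for Rtp4 (limma adjusted p = 0.00128) and -1.90 ± 0.082 for Ifi44 (limma adjusted p = 0.000106), each 3.73-fold lower in knockout cells. In the order of all 23570 basal ratios they were the 4th and 5th from the bottom.

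The next 6 genes were lower by 0.65 to 0.90 on the log2 scale. Isg15 measured 11.27 and 10.56 in basal knockout cells, against 12.43 and 11.19 in basal wildtype cells, with a ratio of -0.90 ± 0.13 (limma adjusted p = 0.0129). Its ratio was larger in size on the first array (-1.17) than on the second (-0.63), and the levels of the genotypes overlap across arrays, though not within either array. Rsad2, with basal levels given above, had ratios of -0.67 and -0.96 and a fitted ratio of -0.82 ± 0.11 (limma adjusted p = 0.0107). Without the second basal array Rsad2 was not called, and its adjusted p reached 0.0875 at most over the alternatives. Neither Isg15 nor Rsad2 was called with processed signals or the authors' deposited table, where the limma adjusted p of Isg15 reached 0.103.

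Zbp1 measured 9.79 and 9.82 in basal knockout cells, against 10.72 and 10.50 in basal wildtype cells, and its ratio was -0.80 ± 0.11 (limma adjusted p = 0.00863). Usp18 measured 9.81 and 9.23 in basal knockout cells, against 10.51 and 10.11 in basal wildtype cells, with a ratio of -0.79 ± 0.075 (limma adjusted p = 0.00267). In both genes the knockout levels lay below the wildtype levels without overlap. Ifit3 measured 8.39 and 7.18 in basal knockout cells, against 9.10 and 7.89 in basal wildtype cells, and Ifi204 measured 13.36 and 12.30 in basal knockout cells, against 13.93 and 13.03 in basal wildtype cells. Here the higher knockout level lay above the lower wildtype level, while the ratio within an array was steady, at -0.71 on both arrays for Ifit3 and at -0.57 and -0.73 for Ifi204. Zbp1, Ifit3 and Ifi204 were not called with processed signals or the authors' deposited table, while Usp18 was.

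The last 6 called genes had smaller ratios: Ddx58 -0.62 ± 0.071, Xaf1 -0.58 ± 0.076, Ifit1 -0.56 ± 0.068, Ifit2 -0.52 ± 0.081, Dhx58 -0.44 ± 0.071 and Cmpk2 -0.43 ± 0.069 (SE), with a highest limma adjusted p of 0.0195 for Dhx58. Xaf1 had a further probe of opposite sign, described below. The further Ddx58 probe gave -0.18 ± 0.097 and did not pass (limma adjusted p = 0.366 over all probes), so the basal call of Ddx58 holds for 1 probe of 2. The offset of 50 added to every intensity pulls the ratio of a dim probe toward 0, and Ifit1, Ifit2 and Cmpk2 had low basal intensities. With the processed signals, which carry no such offset, their ratios were -1.04, -1.14 and -1.09, and Cmpk2 was then not called. Ddx58 and Dhx58 were not called with processed signals either. Dhx58 and Cmpk2 were not called without either basal array, nor were Zbp1, Xaf1 and Ifit2 without the first.

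Just outside the threshold stood Samd9l at -0.35 ± 0.076 (limma adjusted p = 0.0557) and Ifi27l2a at -0.44 ± 0.10 (limma adjusted p = 0.0728). Adar, Ifi35, Sp100 and Tor3a lay within 0.03 of 0. Trim21, a ubiquitin ligase that also binds antibody, went opposite ways on the basal arrays, at 0.66 and -0.46, and without the second basal array it would be called higher. Over the alternatives the basal ratio of each of the 14 lower genes kept its sign, with the exception of Xaf1 under the mean over probes.

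**Figure D2:**
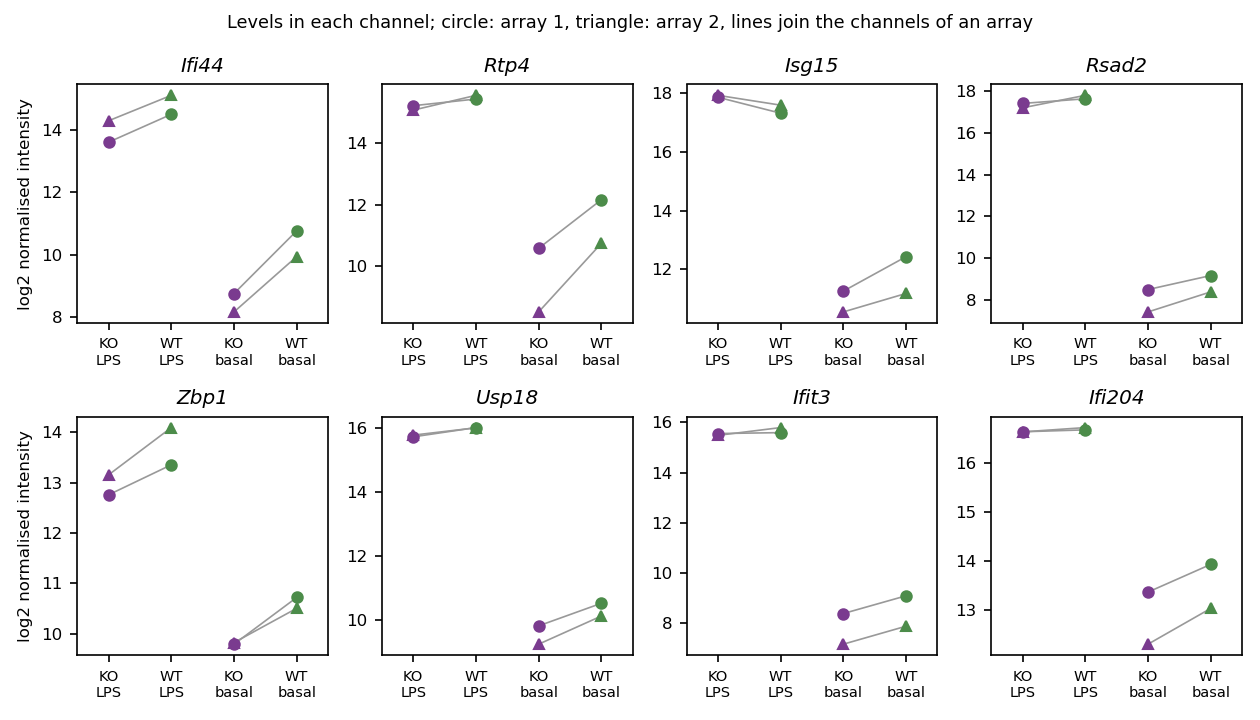
Log2 intensity of the 8 antiviral effectors with the largest basal knockout to wildtype ratios, in each channel of the 4 arrays, with a circle for the first and a triangle for the second array of a condition and lines joining the 2 channels of an array. Each gene is shown by its brightest probe. Under LPS, Ifi44 and Zbp1 keep a gap between the genotypes, though the further Zbp1 probe was not called there. The basal gap is widest for Ifi44 and Rtp4.

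The basal arrays also differed from each other, in both genotypes. The first basal array was brighter than the second for 32 of the 35 genes in knockout cells, by a median of 0.45, and for 32 of 35 in wildtype cells, by a median of 0.40. Over all genes the first array was brighter for 52.0% in knockout and 50.8% in wildtype cells, with medians of 0.01 and 0.00. The widest gap, 2.06, was that of Rtp4 in knockout cells. On the LPS arrays the genes were split more evenly: 15 of 35 genes were brighter on the first array in knockout cells and 14 of 35 in wildtype cells, with medians of -0.05 and -0.08. A shift that both channels of an array share drops out of the ratio, but it counts in every comparison of levels across arrays. Both basal knockout levels lay below both wildtype levels in 13 of the 35 genes, where this held for 18.9% of all genes. It held in 7 of the 14 called genes. These were picked for low ratios on the same arrays, so the share of all genes is no reference for them.

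**Figure D3:**
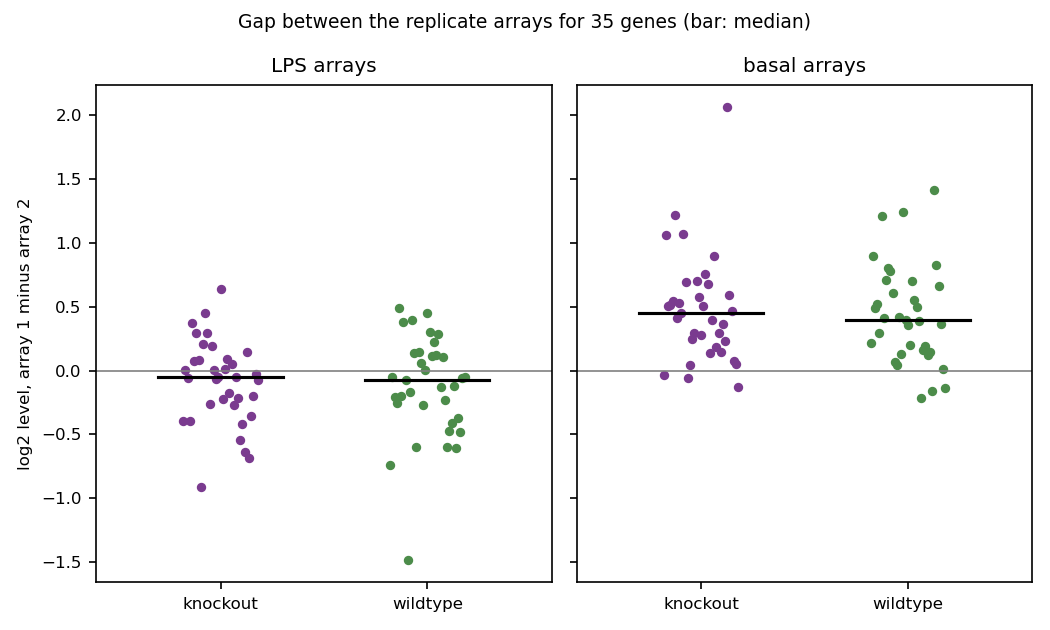
Difference in log2 intensity between the first and the second array of a condition for each of the 35 antiviral effectors, by channel. Bars mark the median; 15 genes in knockout and 14 in wildtype cells lie above 0 with LPS, and 32 of 35 do in each genotype in the basal state.

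With LPS, few of the effectors differed between the genotypes. Of the 35 genes 3 were lower in knockout cells and 1 was higher, where 5.23% of all genes were lower and 7.17% higher, so the share of calls, 4 of 35, was close to the 12.4% of all genes. At an unadjusted p under 0.05 in limma 10 were lower and 4 higher, with no share of all genes counted at that threshold. The median ratio was 0.02. With median centring, 3 genes were lower and 17 higher and the median was 0.34, so the balance of directions with LPS depends on the dye normalization.

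The 3 lower genes were Xaf1 and Zbp1, each by its brighter probe, and Ifi44. Xaf1, whose product is known as a partner of the caspase inhibitor XIAP, measured 13.12 and 13.48 in LPS knockout cells, against 14.06 and 14.44 in LPS wildtype cells, and its ratio was -0.95 ± 0.076 (limma adjusted p = 0.0011). Ifi44 measured 13.62 and 14.31 in LPS knockout cells, against 14.52 and 15.13 in LPS wildtype cells, and its ratio was -0.86 ± 0.082 (limma adjusted p = 0.00197). Zbp1 measured 12.76 and 13.15 in LPS knockout cells, against 13.35 and 14.09 in LPS wildtype cells, and its ratio was -0.77 ± 0.11 (limma adjusted p = 0.00678). By these probes, knockout and wildtype levels did not overlap in Xaf1, Ifi44 or Zbp1. These genes were picked for their low LPS ratios, and the share of all genes without overlap was not counted with LPS. The further Zbp1 probe gave -0.39 ± 0.13 with LPS and did not pass (limma adjusted p = 0.105 over all probes). The LPS call of Zbp1 thus holds for 1 probe of 2. Ifi44 was not called without either LPS array, and Zbp1 was not called without the second or with processed signals or the authors' deposited table. Their limma adjusted p over all alternatives reached 0.0522 for Ifi44 and 0.0962 for Zbp1.

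Trim25, the ubiquitin ligase that activates RIG-I, was the 1 higher gene. It measured 15.10 and 15.05 in LPS knockout cells, against 14.84 and 14.55 in LPS wildtype cells, with ratios of 0.25 and 0.49 and a fit of 0.37 ± 0.080 (limma adjusted p = 0.0315). It was not called under 6 of 11 alternatives, among them the omission of either LPS array. Isg15 was higher in knockout cells on both LPS arrays, at 17.84 and 17.91 against 17.30 and 17.57 in wildtype cells, but its ratio of 0.44 ± 0.13 did not pass (limma adjusted p = 0.0794). The ratios of Rtp4, -0.35 ± 0.15, and of Rsad2, -0.41 ± 0.11, did not pass either, with limma adjusted p of 0.188 and 0.0644. The 3 IFIT genes had ratios of -0.22 to -0.13.

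**Figure D4:**
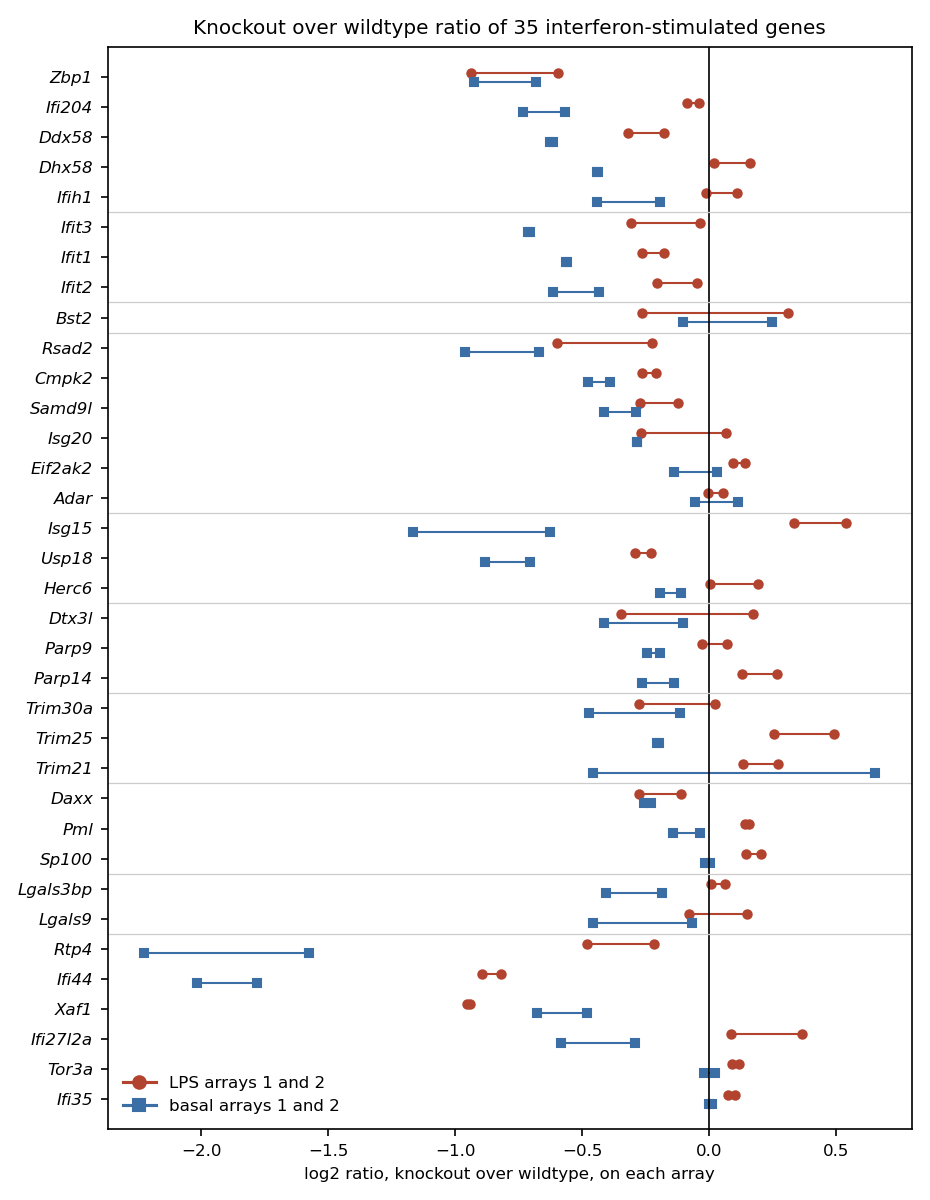
Log2 ratio of knockout over wildtype for each of the 35 antiviral effectors on each of the 4 arrays. Lines join the 2 arrays of a condition; basal ratios reach -2.23 for Rtp4 and -2.02 for Ifi44, and the lowest LPS ratios are those of Xaf1, Ifi44 and Zbp1, where Xaf1 is shown by its brighter probe and its other probe has the opposite sign.

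The knockout effect itself was then compared between the conditions, in which a constant dye effect cancels, but not one that changes with intensity. The difference of the ratios, LPS minus basal, was called for 1 of the 35 genes, Ifi44, which was less negative with LPS by 1.04 ± 0.12 (limma adjusted p = 0.0288). No gene was called the other way. Of all genes, 0.280% were called higher and 0.123% lower in this comparison, at the adjusted threshold. At an unadjusted p under 0.05 in limma 18 of the 35 genes were higher and 1 was lower, with no share of all genes counted there. Rtp4 had the largest difference, 1.55 ± 0.22, and Isg15, by its brighter probe, one of 1.33 ± 0.19, both with a limma adjusted p of 0.0551. The median over the 35 genes was 0.25. With median centring in place of loess it was 0.46, and 9 genes were called higher, so the size of the difference depends on the dye normalization. Both LPS ratios lay above both basal ratios in 26 of the 35 genes, as they did in 20% of all genes. The exceptions were Adar, Bst2, Daxx, Dtx3l, Lgals9, Trim21, Trim30a, Xaf1 and Zbp1.

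Seen from the side of induction, the same numbers mean that the log2 response to LPS was larger in knockout cells for 32 of the 35 genes, where this held for 49.4% of all genes. The exceptions, by the brighter probe, were Adar, Bst2 and Xaf1. Rtp4 changed by 5.59 ± 0.69 in knockout cells and by 4.04 ± 0.47 in wildtype cells, Isg15 by 6.96 ± 0.25 in knockout cells and by 5.62 ± 0.43 in wildtype cells, and Ifi44 by 5.51 ± 0.32 in knockout cells and by 4.47 ± 0.35 in wildtype cells. These responses come from the brighter probe of a gene, and for Xaf1 and Adar the direction turns with the other probe: by that probe the knockout response minus the wildtype response was 2.29 ± 0.12 for Xaf1 (limma adjusted p = 0.00121) and 0.23 ± 0.098 for Adar (limma adjusted p = 0.509). The other Cmpk2 probe had a difference of 1.32 ± 0.16, where the brighter one had 0.20 ± 0.097. For Isg15 the other probe gave a smaller difference, 0.72 ± 0.19 (limma adjusted p = 0.248 over all probes). That probe rose by 7.83 ± 0.18 in knockout cells and by 7.11 ± 0.36 in wildtype cells. The call of Ifi44 was lost with processed signals, with the authors' deposited ratios and without either LPS array, where the limma adjusted p rose to 0.298 at most.

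Averaged over both conditions, 14 genes were lower in knockout cells and 0 higher, where 8.22% of all genes were lower and 9.94% higher. At an unadjusted p under 0.05 in limma 18 were lower and 0 higher, again with no share of all genes counted at that threshold. Ifi44 led with -1.38 ± 0.058, followed by Rtp4 at -1.12 ± 0.11, Zbp1 at -0.78 ± 0.075, Xaf1 at -0.76 ± 0.054, Rsad2 at -0.61 ± 0.080, Usp18 at -0.53 ± 0.053, Ifit3 at -0.44 ± 0.060 and Ddx58 at -0.43 ± 0.051, with a highest limma adjusted p of 0.00476 for Ifit3. Ddx58 measured 14.69 and 14.75 in LPS knockout cells, against 14.87 and 15.07 in LPS wildtype cells, and 10.65 and 10.15 in basal knockout cells, against 11.27 and 10.78 in basal wildtype cells. Its ratio was below 0 on all 4 arrays, and so were the ratios of the other 7 genes, by the brightest probe of each. The other probes of Xaf1 and Cmpk2 were higher, at 5.42 ± 0.061 and 0.64 ± 0.082 (limma adjusted p = 4.1e-07 and 0.00349 over all probes). Those of Ddx58 and Samd9l did not pass, at -0.16 ± 0.069 and -0.21 ± 0.065 (limma adjusted p = 0.159 and 0.0708). The other Zbp1 probe was lower too, at -0.55 ± 0.093 (limma adjusted p = 0.0105). With median centring 4 genes were lower and 12 higher, so the directions of this average, too, depend on the dye normalization.

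The ratios over the 35 genes were also set against each other between arrays. Pearson's r over the genes was 0.78 between the LPS arrays and 0.81 between the basal arrays, and 0.49 to 0.62 between an LPS and a basal array. Over all genes it was 0.78 between the LPS arrays, 0.61 between the basal arrays and 0.47 to 0.64 between an LPS and a basal array. These are descriptions over genes, which are not independent replicates, and all arrays share 1 slide, 1 scan and the dye order.

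More than 1 probe was kept for 14 of the 35 genes, and in 7 of them the probes disagreed in sign or by more than 1 in a knockout comparison. The widest disagreement was in Xaf1. The probe with the higher mean level gave the ratios above, while the other Xaf1 probe had levels of 15.47 and 15.81 in LPS knockout cells, against 9.01 and 9.15 in LPS wildtype cells. Without LPS this probe read 11.44 and 10.89 in knockout cells, against 7.07 and 6.72 in wildtype cells. Its ratios were 6.46 and 6.66 with LPS and 4.37 and 4.17 without, opposite in sign to those of the first probe on all 4 arrays. The probes rose with LPS alike in knockout cells, by 3.89 ± 0.22 for the first and 4.47 ± 0.23 for the other, and in wildtype cells by 4.26 ± 0.26 and, for the other, 2.18 ± 0.15. No direction for Xaf1 as a gene can be given from these probes.

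Cmpk2 had a further probe with LPS ratios of 1.07 and 1.54, where the first probe gave -0.21 and -0.26. In the basal state that further probe gave 0.04 and -0.08, near its background in knockout cells, where it was above background on 1 of the 2 basal arrays. The fit of the further probe with LPS was 1.30 ± 0.12, so the direction of Cmpk2 with LPS depends on the probe, and its basal call holds for 1 probe of 2. Both Isg15 probes were lower in basal knockout cells, at -1.17 and -0.63 for the first and -1.04 and -0.55 for the other. With LPS the other Isg15 probe gave 0.10 and -0.25, where the first gave 0.54 and 0.33, so the higher LPS level of Isg15 was seen with 1 probe only.

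The remaining 4 disagreements were smaller than 1, and none of these genes was called by its brighter probe. The further Pml probe was lower in basal knockout cells, at -0.38 ± 0.076 (limma adjusted p = 0.0419 over all probes), where the brighter one gave -0.09 ± 0.070. The further Adar probe gave 0.15 and 0.22 with LPS and -0.01 and -0.08 in the basal state, where the first gave -0.01 and 0.06, and 0.11 and -0.06. Ifih1 had ratios of 0.37 and 0.21 with LPS and -0.06 and -0.05 without from its further probe, which was not above background in basal knockout cells. The first Ifih1 probe gave -0.01 and 0.11 with LPS and -0.20 and -0.44 without. Pml gave 0.03 and 0.21 with LPS and -0.38 on both basal arrays from its further probe, against 0.16 and 0.14, and -0.04 and -0.14, from the first. Tor3a gave -0.04 and -0.10 with LPS and -0.15 on both basal arrays from its further probe, against 0.12 and 0.09, and 0.02 and -0.02, from the first.

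**Figure D5:**
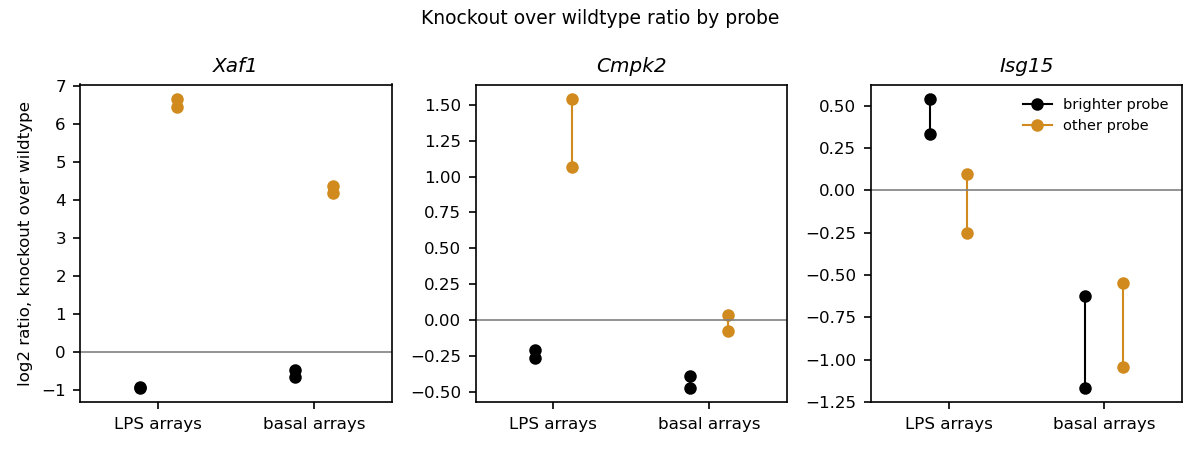
Log2 ratio of knockout over wildtype on each array for the probes of Xaf1, Cmpk2 and Isg15. The Xaf1 probes lie on opposite sides of 0 on all 4 arrays, at 4.17 to 6.66 and at -0.95 to -0.48.

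Among 15 genes that lead from LPS or nucleic acid to interferon, 1 was lower in basal knockout cells, Irf7, the factor that amplifies interferon production and is itself interferon-induced. Its ratios were -0.63 and -0.58, and the fit was -0.61 ± 0.066 (limma adjusted p = 0.00476). With LPS 2 of the 15 were lower, Tlr4, the LPS receptor, at -0.58 ± 0.11 and its co-receptor Cd14 at -0.51 ± 0.090, and 0 were higher. Averaged over both conditions 3 of the 15 were lower and 2 higher, where 18.2% of all genes were called in either direction, as 4.87% were in basal cells and 12.4% with LPS. The lower ones were Cd14 at -0.46 ± 0.064, Irf7 at -0.35 ± 0.047 and Tlr4 at -0.30 ± 0.077. The higher ones were Tbk1, a kinase that activates IRF3, at 0.36 ± 0.090 and Traf3, an adaptor, at 0.24 ± 0.066, at limma adjusted p of 0.04 and 0.0499. Among 16 genes of interferon signalling, 1 was lower in basal knockout cells, Usp18, which is also among the effectors. With LPS 1 of the 16 was lower, Ptpn6, and 1 was higher, Irf8, a factor of macrophage identity, at 0.57 ± 0.096 (limma adjusted p = 0.0139). Averaged over both conditions 1 of the 16 was lower, Usp18, and 2 were higher, Irf8 at 0.35 ± 0.068 and Irf1 at 0.24 ± 0.047.

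Interferon beta itself (Ifnb1) was not well above background in basal cells of either genotype, so its basal level could not be compared. With LPS it measured 11.55 and 9.37 in knockout cells, against 11.64 and 9.64 in wildtype cells. It was at least 20.8-fold higher with LPS than without in knockout cells and at least 23.1-fold in wildtype cells. The bound compares the LPS mean with the lowest signal well above background or the probe's own, whichever is higher. The LPS ratio of -0.18 ± 0.076 was not called (limma adjusted p = 0.175). Ifnb1, Cd14, Ptpn6 and Irf1 were chosen for mention after their values were seen.

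Markers of other cells in these cultures moved with the genotype, and they are given beside the effector results. Of all genes, 1.49% were lower and 3.37% higher in basal knockout cells, and 5.23% lower and 7.17% higher with LPS. These shares stand beside all marker counts below. Of 14 granulocyte markers 7 were lower and 0 higher in basal knockout cells. The log2 of their summed intensity, in which the brightest markers weigh most, was 16.98 to 17.20 in knockout cells and 17.50 to 17.83 in wildtype cells. Sums below are of the same kind. With LPS 8 of the 14 were lower and 0 higher, with sums of 17.23 to 17.35 in knockout cells and 18.35 to 18.51 in wildtype cells. LPS itself raised 7 and lowered 1 of the 14 in knockout cells, where 19.0% of all genes rose and 22.8% fell. In wildtype cells it raised 9 and lowered 1, where 18.3% rose and 23.5% fell. The sums are thus not counts of cells. Among the 14 markers, Retnlg was not well above background in knockout cells in either condition. Of 9 markers of eosinophils, mast cells and basophils 2 were lower and 2 higher in basal knockout cells, and 3 lower and 2 higher with LPS, and Fcer1a was not well above background in knockout cells. Their sums were 14.76 to 14.98 in LPS knockout cells, against 15.48 to 15.62 in LPS wildtype cells, and 15.66 to 15.69 in basal knockout cells, against 15.97 to 16.17 in basal wildtype cells.

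No marker was called in basal cells among 9 of dendritic cells, 7 of plasmacytoid dendritic cells, which include the effector Bst2, and 10 of lymphocytes. With LPS 1 dendritic cell marker was lower and 1 higher, and 1 plasmacytoid marker was higher. Sums in the basal state were 16.74 to 16.94 in knockout and 16.84 to 17.07 in wildtype cells for dendritic cells, 17.18 to 17.22 and, in wildtype cells, 16.96 to 17.17 for plasmacytoid cells, and 13.13 to 13.33 in knockout and 13.16 to 13.29 in wildtype cells for lymphocytes. Of the macrophage markers 2 of 7 were lower in knockout cells in each condition, with basal sums of 17.69 to 17.92 in knockout and 17.70 to 17.72 in wildtype cells. The part of these cells in the effector results was not tested.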

How the data were processed

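RNA of 4 arrays with 2 colours was measured, 2 arrays with LPS and 2 basal, with knockout RNA in Cy5 and wildtype RNA in Cy3 on each. Per spot, the deposited scanner files give an intensity in each colour. They name version 11.5.1.1 of Agilent Feature Extraction in their headers, whereas the submitters' processing notes name 9.3.2.1. The deposited log10 ratio of each spot (red over green) was not used. In the authors' deposited table the values are log2 of knockout over wildtype. Set against the processed signals' log2 ratio, its columns are shifted by -0.0051 to 0.0020 per array (within 0.001 for 100% of the probes compared). The origin of the shift is not given in any source used. Its column medians lie between 0.016 and 0.034.

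Median intensities went through normexp background correction with an offset of 50, loess within arrays (controls and outliers at weight 0) and Aquantile scaling of levels, in limma 3.58.1 under R 4.3.3. Of 44397 spots 1377 were controls, 207 to 255 per array were outliers, and 0 were saturated. All 4 arrays came from 1 slide and 1 scan, so no batch term could be fitted. Of 39429 probes 28635 were kept, being well above background in at least 1 channel on 2 or more arrays. Accessions were matched without version to RefSeq genes of GRCm38.p6 (27508 probes named, 11921 kept the accession). The array's own build is mm9 in the headers, and coordinates are given for the RefSeq promoters alone. The brightest kept probe stood for a gene. The number of arrays limits the precision.

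Moderated fits (limma's lmFit and eBayes, two-sided, 23570 genes) gave 6 comparisons. Alternatives were an offset of 20, processed signals, median centring, other scalings, filters and probe summaries, the authors' table, leaving out each array, and a replicate block. Array values are given for up to 8 called genes of largest ratio per knockout comparison, the 5 largest and 3 smallest LPS changes in wildtype cells, called differences of the knockout effect, and genes whose probes disagree. Of the upstream lists, the 3 highest and 3 lowest called ratios are named. The effector genes, roles, upstream lists, cell markers and this rule were chosen with earlier results of these data known.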

Additional observations from a re-analysis of the deposited data

Results flagged for a closer look

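Ifi44 had a knockout effect that differed between the conditions. Its log2 ratio of knockout over wildtype was -0.90 and -0.82 on the LPS arrays and -2.02 and -1.78 on the basal arrays, and the difference, LPS minus basal, was 1.04 (limma adjusted p = 0.0288). Both LPS ratios lay above both basal ratios. Over 13 alternatives the difference ranged from 0.92 to 1.29, and the highest adjusted p was 0.298. Only 2 arrays per condition were measured, so no group was large enough to look for a sample that stands apart.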

How the results depend on the processing

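Of 2590 pairs of a gene and an alternative setting, 2441 kept their direction and side of the threshold, 76 lost and 57 gained a call, and 16 reversed. LPS against basal was the most stable, with 33 to 35 genes higher in knockout and 31 to 35 in wildtype cells. For knockout against wildtype in basal cells, lower genes numbered 14, and 6 with processed signals, 6 with the authors' table and 9 to 11 without 1 array; 1 was higher with the mean over probes (Xaf1) and 0 to 1 without 1 array. With LPS, lower genes numbered 3, and 1 to 2 without 1 array. The 1 higher gene became 0 with the authors' table, processed signals, offset 20 or either array left out, 3 with the mean over probes and 17 with median centring. For the mean of both, 14 lower genes became 4 with median centring and 10 to 14 without 1 array, and 0 higher became 12 with median centring, 1 with the mean over probes and 0 to 1 without 1 array. The difference of the knockout effect was called for 1 gene, and for 0 with the authors' table or processed signals, 3 with the mean over probes or no filter, 9 with median centring and 0 to 3 without 1 array. The cause of these changes was not tested.

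Reversed under the mean over probes were Xaf1 (basal 1.85, LPS 2.81, mean of both 2.33, difference 0.96) and Cmpk2 (LPS 0.53, mean of both 0.15), which follows from averaging probes of opposite sign. Reversed under median centring were, with LPS, Daxx 0.30, Ifi204 0.55 and Ifit1 0.29, and, for the mean of both, Daxx 0.13, Ifi204 0.083, Ifi27l2a 0.46, Ifih1 0.23, Lgals3bp 0.34, Parp14 0.39 and Samd9l 0.056.

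Same-numbered arrays deviated with r = -0.16 (log2 ratio), -0.19 (Cy3) and -0.08 (Cy5). These values gave no sign that the numbers pair the samples. With 2 arrays per condition they cannot exclude pairing. With the replicate block, higher genes with LPS numbered 0 and the difference was called for 2 genes. A crossed replicate block, added after seeing the data, gave 5 lower and 2 higher genes with LPS and 5 for the difference. Counts over all genes moved by more than 1.5 times too. With LPS, 1690 were higher, and 303 to 391 without 1 array, 934 with processed signals and 4633 with median centring. In basal cells 795 were higher, and 3812 with median centring.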

Other observations

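Cdk5r1 lies on mouse chromosome 11, and so do 6 of the 35 antiviral effectors: Dhx58, Ifi35, Lgals3bp, Lgals9, Trim25 and Xaf1. Of these 6 genes, Dhx58 and the first Xaf1 probe were lower in basal knockout cells, and with LPS the first Xaf1 probe was lower and Trim25 higher. The further Xaf1 probe, with ratios of 4.17 to 6.66 on the 4 arrays, belongs to a gene of this chromosome too. Probe sequences were not used here, and whether strain differences lie under these probes was not tested.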
